A study of Mus musculus with 4 samples.

Results

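Bone morphogenetic protein (BMP) signalling was examined through 10 genes chosen by name: the ligands Bmp2, Bmp4 and Bmp7, the secreted BMP-binding proteins Bmper and Grem1, the inhibitory SMAD gene Smad6, and the ID genes Id1, Id2, Id3 and Id4. The choice was made with earlier results of these data known. All 10 were found by gene symbol among the 54532 genes of the deposited count table. The libraries came from MPC5, a conditionally immortalized mouse podocyte line, which was grown with interferon-γ at the permissive temperature and differentiated without it. There were 2 libraries of cells exposed for 6 h to IL-12 at 400 ng/ml (IL-12 treatment group) and 2 of saline-treated cells (control group). No source states that the libraries of a group are separate cultures, so the p-values measure the spread between these samples, which may be technical. As the RNA was taken from bulk cultures, fewer cells expressing a gene and less RNA per cell cannot be told apart.

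BMPs are secreted dimers of the TGF-β superfamily that bind type I and type II serine/threonine kinase receptors. The receptors phosphorylate SMAD1, SMAD5 and SMAD9, which enter the nucleus with SMAD4 and raise transcription of a small set of direct targets, among them the ID genes and the feedback inhibitor Smad6. In the kidney, BMP7 is required for nephron formation, and the balance of BMP ligands and extracellular antagonists has been studied in glomerular and fibrotic disease.

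The total counts were 18355379 to 20098012 per library, and 3 counts, taken as the detection floor, equal 0.149 to 0.163 CPM, the count of a gene scaled to a library of fixed size. This floor covers counting error only. Mitochondrial genes took 1.94% to 2.04% of the counts. Of 13 podocyte markers, 8 had over 3 counts in every library. The list summed to 2026 to 2031 CPM in the control group and 1987 to 2007 CPM in the IL-12 treatment group. Actn4 took the largest part of this sum, with means of 1155 CPM in the control group and 1299 CPM in the IL-12 treatment group. As Actn4 rose and Synpo fell, a steady sum does not mean that each marker was steady. Synpo was abundant, with 489 and 470 CPM in the control libraries against 302 and 307 CPM in the IL-12 libraries, and Podxl had 52.6 to 72.8 CPM. Nphs1, which encodes the slit diaphragm protein nephrin, was at the floor, with 0 and 1 counts in the control libraries against 0 and 0 in the IL-12 libraries, and Wt1 had only 4 to 16 counts. Of the endothelial markers, 0 of 7 had over 3 counts in every library, and their sum was 0.371 to 0.95 CPM in the control group and 0.719 to 0.809 CPM in the IL-12 treatment group. The leukocyte list summed to 4.91 to 7.19 CPM over the 4 libraries, with 1 of 6 markers above the floor throughout. Parietal epithelial markers (3 of 3 above the floor) summed to 382 to 387 CPM in the control group and 282 to 283 CPM in the IL-12 treatment group, tubular markers (2 of 7) to 635 to 661 and 519 to 560 CPM, and mesangial and smooth muscle markers (4 of 7) to 206 and 223 to 231 CPM. The tubular sum was nearly all Lrp2, with means of 646 CPM in the control group and 537 CPM in the IL-12 treatment group. The parietal epithelial sum was nearly all Pax2 (means 220 and 154 CPM) and Pax8 (162 and 126 CPM). The third marker of that list, Cldn1, had means of 2.22 CPM in the control group and 2.21 CPM in the IL-12 treatment group. The part of these marker shifts in the results was not tested.

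Id1, Id2 and Id3 had the highest levels of the listed genes, and the BMP ligands among the listed genes were scarce. On the FPKM scale, which divides by gene length so that genes can be compared, the control means ran in the order Id3 (128), Id1 (105), Id2 (60.7), Smad6 (24.7), Bmp4 (3.94), Id4 (1.77), Bmp7 (0.935), Bmper (0.564) and Bmp2 (0.0297), and Grem1 was listed at 0. The ranges over the control libraries of neighbours in this order did not overlap. In CPM, which does not divide by length, Id2 (control mean 148) stood above Id1 (122). The place of Id1 before Id2 thus rests on the gene lengths of 1160 bases for Id1 and 2438 for Id2. The RefSeq start of Id2 lies inside its gene span, and which length suits the transcripts of these cells was not tested. In the IL-12 treatment group the first 6 places were the same, with means of 129, 119, 71.0, 24.3, 3.92 and 1.34 FPKM. Bmper, at 1.08 and 0.962 FPKM in the IL-12 libraries, then stood beside Bmp7 at 0.768 and 0.977 FPKM, and the ranges of these neighbours overlapped.

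**Figure D1:**
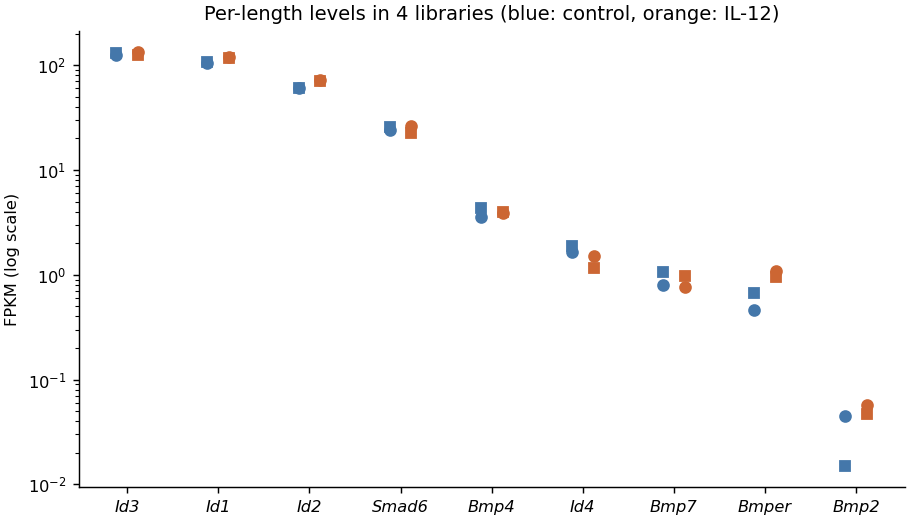
Level per gene length (FPKM, log scale) of the 9 genes with any counts, ordered by the control mean. Blue points are control libraries and orange points IL-12 libraries (circle, replicate 1, and square, replicate 2). Id3, Id1 and Id2 lie above 60 FPKM in every library and Bmp2 below 0.06. Grem1, listed at 0, is not drawn.

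Compared with the control group, 3 of the 8 genes that passed the count filter were called by edgeR's quasi-likelihood test (adjusted p below 0.05 at any fold change), namely Bmper, Id1 and Id2. All 3 were higher and 0 were lower. Of all 14095 genes tested, 30.5% were called, 16.1% as higher and 14.4% as lower. Genes higher in the IL-12 treatment group made up 52.8% of the called genes with TMM scaling and 40.5% when libraries were scaled by total counts only. The median log2 fold change was -0.001 over the 8 genes and -0.002 over all genes tested. With the further limit of a 2-fold change, 0 of the 8 genes and 1.61% of all genes tested were called. At an unadjusted p below 0.05, 4 of the 8 and 39.4% of all genes tested passed. Of these 4, 0 were over 2-fold, and 0 of the 8 were called over 2-fold by DESeq2, by edgeR's likelihood ratio test or by limma voom. In scaled CPM the groups did not overlap for Bmper, Id1, Id2 and Id4, 4 of the 8, beside 62.9% of all genes tested.

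**Figure D2:**
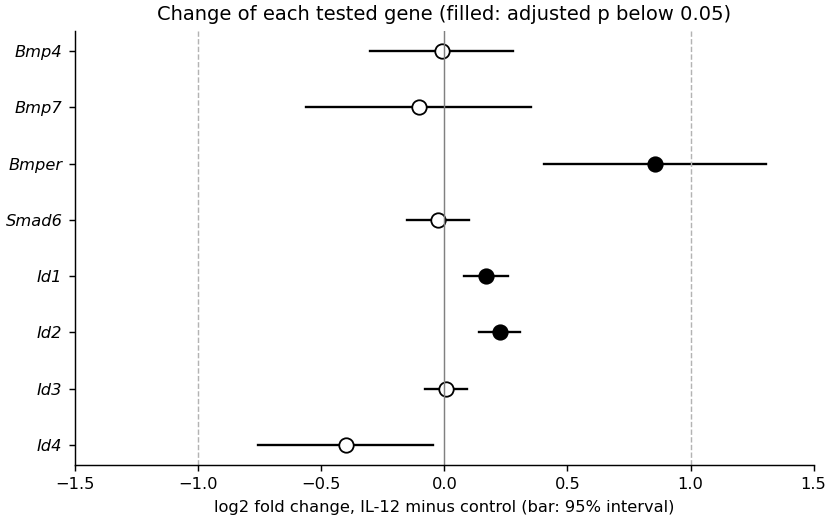
Change of the 8 tested genes as log2 fold change (IL-12 minus control) with 95% intervals. Filled points are called, and dashed lines mark a 2-fold change. Bmper has the largest change, 0.85, while the intervals of Id3 and Smad6 lie within 0.16 of 0.

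BMP4 and BMP7 are ligands of mesenchyme and epithelium with broad roles in kidney development, and both were measurable. Bmp4 (ENSMUSG00000021835, chromosome 14 from 46383520 to 46390669, GRCm38, minus strand) had 7.97 and 9.75 CPM in the control libraries against 8.69 and 8.90 CPM in the IL-12 libraries. The IL-12 libraries lay between the control libraries. On the log2 scale the change was -0.01 (standard error 0.14), its 95% interval ran from -0.30 to 0.28 and the adjusted p was 0.965 by edgeR, so the interval ran from 0.811-fold to 1.21-fold. An antisense gene, Gm15222, overlaps Bmp4 on the other strand with 106 counts over the 4 libraries against 668 for Bmp4, and the sources used here do not say whether strand was used in counting. Bmp7 (ENSMUSG00000008999, chromosome 2 from 172868012 to 172940321, minus strand) had 3.22 and 4.29 CPM against 3.08 and 3.92 CPM. The groups overlapped, and the log2 fold change was -0.10 (standard error 0.22, 95% interval -0.56 to 0.35, adjusted p = 0.770 by edgeR).

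Bmp2 (ENSMUSG00000027358, chromosome 2 from 133552159 to 133562885), a ligand best known for bone induction, had 3 and 1 counts in the control libraries against 4 and 3 counts in the IL-12 libraries. These counts stayed below the filter. The ratio of the summed counts, 7 against 4, scaled to the library totals was 1.70, with an exact 95% counting interval of 0.432 to 7.91, so no difference was detectable at this depth. Grem1 (ENSMUSG00000074934, chromosome 2 from 113746164 to 113758646), which encodes gremlin, a DAN family protein that sequesters BMP2, BMP4 and BMP7, had 0 counts in all 4 libraries, which allows a level of up to 0.163 CPM in the shallowest of them.

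Bmper encodes a secreted protein with von Willebrand factor type C domains that binds BMPs and can either restrain or promote their signalling. Bmper (ENSMUSG00000031963, chromosome 9 from 23223076 to 23485200, plus strand) had 42 and 61 counts in the control libraries against 103 and 84 counts in the IL-12 libraries. In scaled CPM these were 2.22 and 3.23 against 5.21 and 4.64, and the groups did not overlap. Against 2.72 ± 0.718 CPM in the control group, the IL-12 treatment group had 4.92 ± 0.398 CPM (mean ± SD, n = 2 each), a rise of 1.81-fold (95% interval 1.32 to 2.47). This equals 0.85 on the log2 scale (standard error 0.21), and the adjusted p was 0.00492 by edgeR's quasi-likelihood test. The call was lost without control replicate 1 (log2 fold change 0.61, adjusted p = 0.0718) and without IL-12 replicate 1 (0.77, adjusted p = 0.103), and it was kept without either of the other libraries. Endothelial cells are a known source of Bmper, and endothelial markers were near the floor in all 4 libraries. Which cells gave the Bmper counts was not tested.

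**Figure D3:**
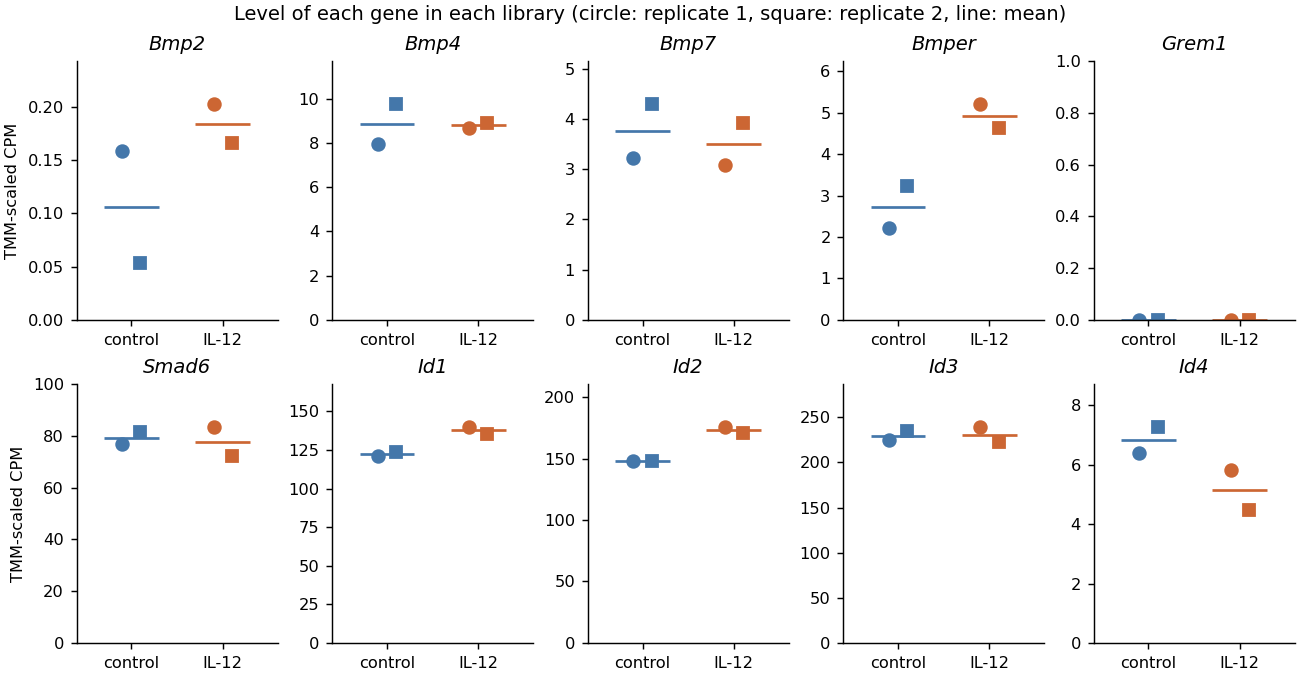
Scaled CPM of each gene in each library, with every axis starting at 0. Circles are replicate 1, squares replicate 2 and lines group means. The IL-12 points of Bmper, Id1 and Id2 lie above both control points, those of Id4 below, and those of Bmp4, Bmp7, Smad6 and Id3 overlap with the control points. The IL-12 points of Bmp2 also lie above both control points, at only 1 to 4 counts per library, and Grem1 is at 0 throughout.

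Smad6 encodes an inhibitory SMAD that blocks BMP type I receptors and SMAD1, and its own transcription is raised by BMP signalling. Smad6 (ENSMUSG00000036867, chromosome 9 from 63953076 to 64022059, minus strand) had 77.0 and 81.6 CPM in the control libraries against 83.4 and 72.4 CPM in the IL-12 libraries. The IL-12 libraries held both the highest and the lowest value. For Smad6 the change was -0.02 on the log2 scale (standard error 0.06, 95% interval -0.15 to 0.10, adjusted p = 0.808 by edgeR), so the interval ended at 1.07-fold upwards and 0.900-fold downwards.

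ID proteins have a helix-loop-helix domain without the basic region that contacts DNA, and they hold E proteins and other bHLH factors away from their sites. Id2 (ENSMUSG00000020644, chromosome 12 from 25093799 to 25097140, minus strand) had 2806 and 2795 counts in the control libraries against 3471 and 3085 counts in the IL-12 libraries. The control libraries both stood at 148 CPM (SD 0.0173) and the IL-12 libraries at 175 and 171 CPM (SD 3.49), so that Id2 rose 1.17-fold (95% interval 1.10 to 1.24). On the log2 scale this was 0.22 (standard error 0.04), and the adjusted p of 0.000228 by edgeR was the smallest of the listed genes. Id1 (ENSMUSG00000042745, chromosome 2 from 152736251 to 152737410, plus strand), among the most immediate BMP target genes, had 121 and 123 CPM in the control libraries against 140 and 136 CPM in the IL-12 libraries. The groups did not overlap, and the rise was 1.13-fold (95% interval 1.06 to 1.2, log2 fold change 0.17, standard error 0.04, adjusted p = 0.00469 by edgeR). Without IL-12 replicate 1 the adjusted p of Id1 was 0.0627, while Id2 stayed below 0.05 without any single library.

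Id3 (ENSMUSG00000007872, chromosome 4 from 136143497 to 136145755, plus strand) was the most abundant of the family and had 224 and 235 CPM in the control libraries against 239 and 222 CPM in the IL-12 libraries. The groups overlapped. The log2 fold change was 0.01 (standard error 0.04, 95% interval -0.08 to 0.09, adjusted p = 0.914 by edgeR), and with total counts only it was -0.03. Id4 (ENSMUSG00000021379, chromosome 13 from 48261228 to 48266026, plus strand) was the least abundant of the 4 ID genes per length, with 121 and 137 counts in the control libraries against 115 and 81 counts in the IL-12 libraries. In scaled CPM these were 6.39 and 7.26 against 5.81 and 4.48, with no overlap. The log2 fold change of Id4 was -0.40 (standard error 0.17, 95% interval -0.76 to -0.05), and its adjusted p of 0.0836 by edgeR did not pass.

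Since a ratio between genes of a library does not depend on how libraries are scaled, the ID genes were also compared within each library. The ratio of Id2 to Id3 in FPKM was 0.485 and 0.464 in the control libraries against 0.540 and 0.563 in the IL-12 libraries. The ratio of Id1 to Id3 was 0.835 and 0.812 against 0.903 and 0.941. The ratio of Id4 to Id3 was 0.0132 and 0.0144 against 0.0113 and 0.00937. Each ratio separated the groups, upwards for Id1 and Id2 and downwards for Id4. These genes also separated the groups in scaled CPM, as did 62.9% of all genes tested, so the ratios to Id3 add no separate evidence. The share of all gene ratios that separate the groups was not counted. Id3 took 42.9% and 43.7% of the summed FPKM of the 4 ID genes in the control libraries against 40.8% and 39.8% in the IL-12 libraries, and the sum itself was 292 and 300 against 328 and 312 FPKM. For Bmper the ratio to Bmp4 was 0.129 and 0.154 in the control libraries against 0.279 and 0.243 in the IL-12 libraries, and that to Bmp7 was 0.573 and 0.626 against 1.40 and 0.984. An exact two-sided permutation test of 2 libraries against 2 cannot go below 0.333, which was the value for each of these 5 ratios before and after Benjamini-Hochberg adjustment.

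**Figure D4:**
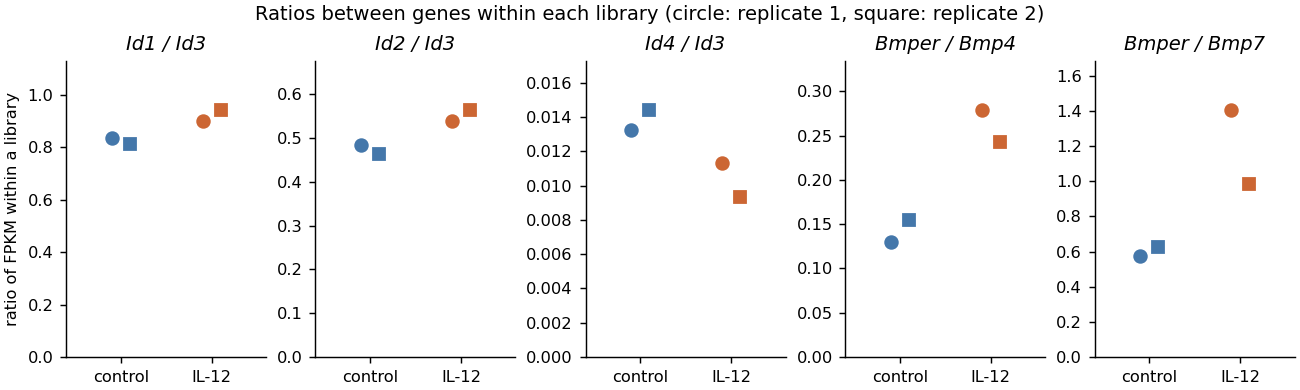
Ratios of FPKM between genes within each library (circle, replicate 1, and square, replicate 2), with axes starting at 0. In the IL-12 libraries the ratios of Id1 and Id2 to Id3 and of Bmper to Bmp4 and Bmp7 lie above both control libraries, and that of Id4 to Id3 lies below.

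RefSeq promoter sequences (GRCm38.p6) matched 7 of the 10 genes, and Id1, Bmp2 and Bmp7 had no entry. The 250 bases before the RefSeq start of each were placed on the GENCODE gene models. Those of Bmp4, Bmper, Grem1, Smad6 and Id4 overlapped no annotated exon. The RefSeq starts of Id2 and Id3 lie inside the longer gene spans given above, so their windows are exonic in part or whole and are not described here. The windows of Bmper, which rose by the largest factor, and of Id4, the ID gene with the lowest values, are shown. They are chr9:23222826-23223075 (plus strand), which ends just before the Bmper gene, and chr13:48260866-48261115 (plus strand), which precedes a RefSeq start 112 bases upstream of the Id4 start given above and lies within introns of the antisense genes A330033J07Rik and Gm49291. Capitals mark GGCGCC, a GC-rich site bound by SMAD1 and SMAD5.
Bmper: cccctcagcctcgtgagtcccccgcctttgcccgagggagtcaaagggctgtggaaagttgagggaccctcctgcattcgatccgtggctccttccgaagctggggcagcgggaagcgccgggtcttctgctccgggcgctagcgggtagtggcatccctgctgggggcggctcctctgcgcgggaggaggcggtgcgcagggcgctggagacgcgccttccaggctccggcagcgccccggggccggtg
Id4: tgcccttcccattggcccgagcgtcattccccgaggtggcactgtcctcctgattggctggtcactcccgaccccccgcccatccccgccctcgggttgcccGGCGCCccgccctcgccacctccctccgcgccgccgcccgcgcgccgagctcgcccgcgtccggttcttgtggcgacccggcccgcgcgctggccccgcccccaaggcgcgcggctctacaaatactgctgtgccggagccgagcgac
The 5 windows without an exon were searched on both strands for GGCGCC, for CAGAC, the core of the SMAD-binding element, and for the E-box CANNTG, to which bHLH factors bind. The Id4 window held 1 GGCGCC, beginning 148 bases before the RefSeq start, and neither of the other motifs. The Grem1 window held 1 GGCGCC and 1 CAGAC, at 78 and 219 bases before the start, and the Bmp4 window held 3 E-boxes. The windows of Bmper and Smad6 held none of the 3 motifs. Of all 32851 RefSeq windows of this length, 9.59% held GGCGCC, 42.2% CAGAC and 66.2% an E-box. A match of these letters is a description of the sequence and not a measured site.

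The other genes of the pathway were taken from 6 lists by role, 97 genes in all, of which 59 passed the count filter. Of these, 28 (47.5%) were called by edgeR, 13 higher and 15 lower, beside the 30.5% of all genes tested. As the lists were chosen with earlier results of these data known, these shares are a description and not a test. The median log2 fold change of the 59 genes was 0.001. By list, the share called was 85.7% for the other ligands, 50% for receptors and co-receptors, and 54.5% for other antagonists and modulators. It was 26.7% for SMADs and regulators, 45.5% for other targets and 40% for bHLH partners and related genes. Among the other ligands, 7 of 18 genes were tested, with 1 higher and 5 lower. This list also held GDF and activin subunit genes, and the BMP genes among the 5 lower were Bmp6 and Bmp3. Bmp6 had 56.7 and 57.0 CPM in the control libraries against 41.5 and 42.5 CPM in the IL-12 libraries, and the value fell by 0.44 on the log2 scale (standard error 0.06, adjusted p = 1.05e-05 by edgeR). The control mean of Bmp6 was 14.6 FPKM against 3.94 FPKM for Bmp4. The value of Bmp6 is uncertain, because Txndc5 overlaps it on the opposite strand with 29720 counts against 3738. The stress-induced ligand Gdf15 fell from 400.5 ± 20.8 to 285 ± 14.0 CPM (SD, n = 2), and Gdf11 fell by 0.30 on the log2 scale. Inhba, which encodes an activin subunit and not a BMP, rose from 53.4 to 113 CPM, a log2 fold change of 1.08. The remaining called ligands, Bmp3 and Inhbb, were named after their values were seen and had log2 fold changes of -1.36 (standard error 0.46, 9 to 32 counts per library) and -0.14 (standard error 0.05).

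Of the receptors and co-receptors, 10 of 13 were tested, with 1 higher and 4 lower. Among the type I receptors, Acvr1 (ALK2) rose by 0.38 on the log2 scale (18.7 to 24.4 CPM, standard error 0.09), and Bmpr1a (ALK3) fell from 150 to 137 CPM, by 0.13 (standard error 0.04). Acvrl1 (ALK1) had 8 and 5 counts in the control libraries against 18 and 11 in the IL-12 libraries, with an adjusted p of 0.124 by edgeR, and Bmpr1b had 1 to 3 counts per library and was not tested. The type II receptor gene Bmpr2 had means of 132 CPM in the control group and 138 CPM in the IL-12 treatment group, with an adjusted p of 0.296 by edgeR. Acvr2b fell by 0.75 on the log2 scale, the BMP co-receptor gene Rgma by 0.38 and Tgfbr3 (betaglycan) by 0.64, with adjusted p of 0.0198, 0.000524 and 1.63e-08 by edgeR.

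The receptor-activated SMADs did not pass the test. The log2 fold changes were -0.01 for Smad1 (95% interval -0.13 to 0.12), 0.04 for Smad5 (-0.05 to 0.14) and 0.30 for Smad9 (0.04 to 0.55), with adjusted p of 0.957, 0.490 and 0.0713 by edgeR. The common partner Smad4 had -0.07 (95% interval -0.17 to 0.03). In the list of SMADs and regulators, 15 of 15 were tested, with 2 higher and 2 lower. This share of 26.7% was below the 30.5% of all genes tested. The inhibitory Smad7, which acts on TGF-β and BMP receptors alike, rose by 0.51 on the log2 scale, from 49.8 ± 2.45 to 70.9 ± 1.65 CPM (SD, n = 2; standard error 0.06, adjusted p = 1.11e-06 by edgeR). The corresponding value of Smad6 was -0.02. Of the SMAD corepressor genes, Skil rose by 0.67 and Ski fell by 0.21 on the log2 scale, and the antiproliferative gene Tob1 fell by 0.37.

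Among the other secreted antagonists and modulators, 11 of 21 were tested, with 4 higher and 2 lower. Fstl1, a follistatin-like glycoprotein that can bind BMP4, rose by 0.56 on the log2 scale (966 to 1419 CPM, standard error 0.02), and Fst, which binds activins and some BMPs, rose by 0.33. Crim1, a membrane-bound BMP-binding protein, rose by 0.10. Nbl1 and Twsg1 fell by 0.21 and 0.16. The protease gene Tll1, whose product cleaves chordin, had 6 and 0 counts in the control libraries against 46 and 33 in the IL-12 libraries (adjusted p = 8.65e-05 by edgeR).

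Of the other genes commonly raised by BMP signalling, 11 of 17 were tested, with 4 higher and 1 lower. Hes1, Dlx2, Runx2 and Junb rose by 0.53, 0.59, 0.43 and 0.42 on the log2 scale, and Atoh8 fell by 0.38. Runx2 and Junb are uncertain, since Supt3 (478 counts against 1964) and Prdx2 (20419 against 6293) overlap them on the opposite strand. The last list held bHLH partners of ID proteins and related helix-loop-helix genes, and 5 of 13 were tested. Tcf3, an E protein gene, fell by 0.13 (standard error 0.04, adjusted p = 0.0169 by edgeR), and Twist1 rose by 0.31 (standard error 0.06, adjusted p = 0.000575 by edgeR).

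**Figure D5:**
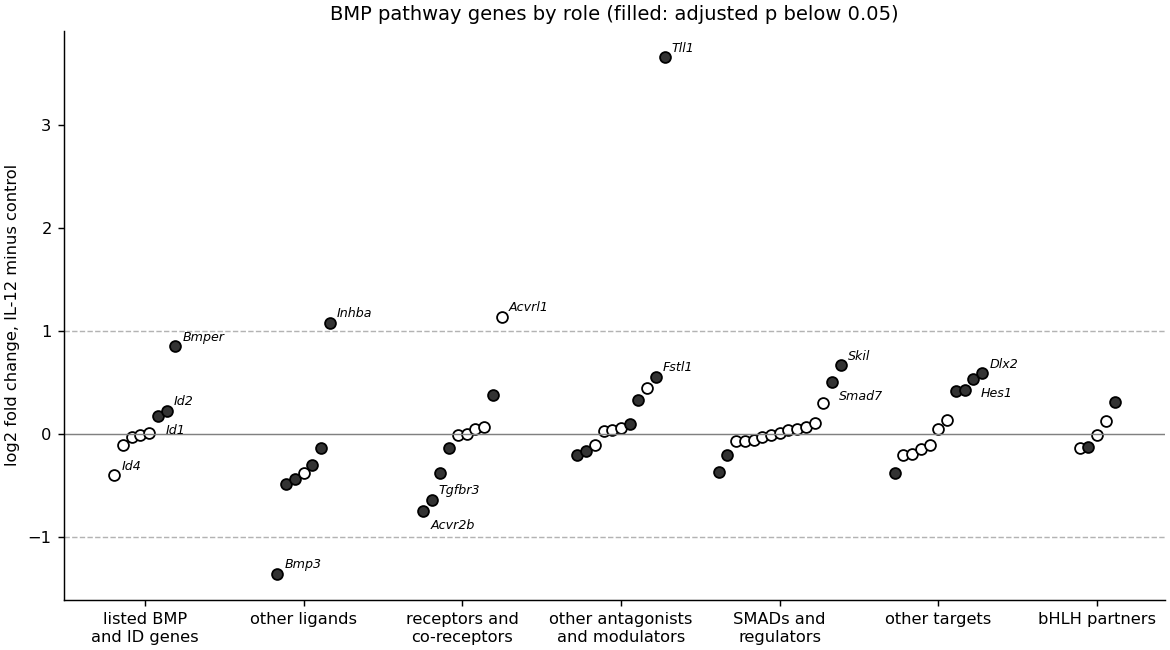
Log2 fold change (IL-12 minus control) of each tested gene, by role. Filled points are called, open points are not, and dashed lines mark a 2-fold change. Bmper, at 0.85, is highest among the 8 BMP and ID genes tested. Of the other ligands Inhba lies above 0 and Bmp3 is lowest, and Tll1, at 3.66, rests on 6 control counts.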

How the data were processed

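RNA from 4 libraries of MPC5 podocytes was sequenced. The authors deposited raw counts per gene, whole numbers without normalization, and FPKM values, which scale each count by gene length and library total. The submitters' processing notes name HISAT2, StringTie and the build mm9, without versions or roles, but the deposited coordinates of all 10 genes equal GENCODE release M21 (GRCm38), which is the build used for coordinates. The counting program and its use of strand are not given in the sources used here.

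Counts were analysed in R 4.3.3. Genes were kept by filterByExpr of edgeR 4.0.16 (minimum 10 counts, 15 in total), scaled by TMM (factors 0.985 to 1.02) and tested across all 14095 genes with the quasi-likelihood test of edgeR, without a block, p-values being adjusted after Benjamini and Hochberg. Standard errors are the log2 fold change over the square root of F, and 95% intervals use the t distribution. CPM are TMM-scaled and FPKM are as deposited. Other fits used DESeq2 1.42.0 and limma 3.58.1, and permutations SciPy 1.17.1. The fits were also run on simulated counts in which few genes changed, each by at least 2-fold. That run does not cover changes as small as those of Id1 and Id2. Counts differed between libraries of the same group beyond sampling noise (chi-square per degree of freedom 2.13 and 2.41). The genes and lists were chosen with earlier results of these data known. The named genes are the 10 genes, the 25 called genes of the pathway lists with the smallest p, the BMP receptor and SMAD genes, and the defining podocyte markers, of which 1 is not reported here. Actn4, Lrp2, Pax2, Pax8 and Cldn1 are named for their part in the marker sums. Alternatives were the replicate block, other scalings, filters, tests, thresholds and pseudocounts, and each library left out in turn. Other assays of the study were not analysed here.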

Additional observations from a re-analysis of the deposited data

How the results depend on the processing

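Of the 10 genes, 3 were called at any fold change in the main design, and the count was 3 with the replicate block, 2 with log2(FPKM + 0.1) (without Bmper, adjusted p = 0.0588 by limma) and 1 to 3 when each library was left out, the lowest without IL-12 replicate 1. The count over 2-fold was 0 to 1 without each library in turn, the 1 being Bmper without control replicate 2 (log2 fold change 1.15). Id2 was called in all 15 alternatives, Id1 in 14 and Bmper in 12. The log2 fold change of Id2 stayed between 0.18 and 0.25, that of Id1 between 0.13 and 0.19 and that of Bmper, on counts, between 0.61 and 1.15. Id4 was below 0 in all 15 and called in 0 of them, with adjusted p of 0.0556 to 0.422.

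Genes near 0 changed sign. Id3 was -0.0079 with upper-quartile scaling and -0.033 with total counts only, and between -0.044 and 0.059 without each library in turn. In the same leave-one-out fits Bmp4 ranged from -0.146 to 0.142, Bmp7 from -0.295 to 0.117 and Smad6 from -0.131 to 0.073. The call count of all genes was 4297 in the main design, 2705 with the DESeq2 Wald test and 2528 without IL-12 replicate 1, and that of the pathway lists was 22 to 29 against 28. As a share of all genes tested in the setting, 30.5% were called in the main design and 30.8% with the replicate block. The share was 22.7% with the DESeq2 Wald test, 20.6% with log2(FPKM + 0.1) and 12.9% of 24525 genes with no filter. It was also below that of the main design whenever a library was left out, so member counts are to be read beside it. Only 8 of the 10 genes could be called in the main design. The replicate block changed no call among the 10 genes. Same-numbered libraries did not deviate together (correlation across genes -0.027), so the numbers were not taken as pairs.

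At 1 to 4 counts of Bmp2 and 0 of Grem1 per library, no difference was detectable. With 2 libraries a group, the error of a gene is estimated largely from that of all genes.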
